A study of Canis lupus familiaris with 36 samples.

Results

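The comparison described here is the addition of AS-605240 (AS) to ibrutinib (Ibr) for 48 h in CLBL-1, a B-cell lymphoma line of the dog. Its members are 6 of 36 RNA-seq libraries, namely the 3 libraries of cells given both agents (Ibr + AS) and the 3 of cells given Ibr alone, chosen by their treatment and time labels and paired by passage number. Both groups were in medium with 1 µM Ibr for 48 h, and the Ibr + AS group also had 5 µM AS. Ibr is thus shared, and AS is the labelled difference. Both agents were dissolved in the solvent DMSO. The study matched the DMSO of its control to that of the combination and gives no DMSO concentration for Ibr alone. Whether the groups also differed in solvent is therefore not known, and its part was not tested. Passages p121, p126 and p128 of the line gave 1 library of each group, and cells for a treatment were grown in a pair of wells. In the same study, DMSO and AS without Ibr were given at the same doses, and every treatment was also sampled at 24 h and 72 h. The study looked for the genes through which the inhibitors act together on the lymphoma cells, and the comparison of Ibr + AS with Ibr asks what AS adds once Ibr is present. CLBL-1 comes from a single dog, and the passages are separate cultures of that line, so the p-values measure the spread between cultures and not between animals.

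Ibr binds Bruton's tyrosine kinase (BTK), which passes the signal of the B-cell receptor on to phospholipase C gamma, NF-kappa B and MAP kinases. AS inhibits the gamma form of the catalytic subunit of phosphoinositide 3-kinase (PI3K), a lipid kinase whose product recruits AKT and, through it, feeds the growth regulator mTOR and restrains FOXO transcription factors. Both pathways meet at the lipid product of PI3K, which is also what brings BTK to the membrane. The sequences of the transcripts are not shown, because no sequence of the annotation's build was used here.

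Library totals of the 6 libraries were between 10442839 and 12602220 reads on genes, and no pair of the 36 libraries was identical. On the log2 scale, libraries of the same group correlated across genes with r between 0.982 and 0.994, and libraries of different groups with r between 0.964 and 0.979. The B-cell identity was checked with 5 markers. DLA-DRA (MHC class II alpha chain), TNFRSF13C (receptor of the survival factor BAFF), IRF5 and TCF4 were present in all 6 libraries, and NFAM1 had no read in any of them. The numbers of the sample sheet in the header of the table fall into 2 series, and the pair of passage p126 is the only one of the 3 that lies in different series, with Ibr in the first and Ibr + AS in the second. The study's sample sheet also lists a lower RNA concentration for each Ibr + AS extract than for the Ibr extract of the same passage, and its part in the results was not tested. Libraries were made from equal amounts of RNA, so fewer cells of a type and less RNA per cell cannot be told apart.

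Adding AS to Ibr raised more genes than it lowered. A differentially expressed gene (DEG) is one with an adjusted p of at most 0.05 in edgeR's quasi-likelihood test (Benjamini-Hochberg over all genes) and a fold change (FC) beyond 1 in either direction on the log2 scale. Of 18670 genes tested, 518 (2.77%) were DEGs, of which 388 (2.08% of those tested) were higher and 130 (0.696%) lower in Ibr + AS. At an adjusted p of at most 0.05 with no limit on size the split was even, with 3759 genes (20.1%) past it, 1854 (9.93%) higher and 1905 (10.2%) lower, so the excess of higher genes lay among the large changes. FCs above 2 on the log2 scale were found for 110 genes and below -2 for 24. These counts include estimates near the floor. For 75 higher DEGs every Ibr library, and for 11 lower DEGs every Ibr + AS library, held 3 reads or fewer. With those genes at their bound, the median log2 FC was 1.31 for the higher and -1.31 for the lower DEGs. The DEGs that were higher took 1.03%, 1.28% and 1.16% of the reads in the Ibr + AS libraries of passages p121, p126 and p128. In the Ibr libraries of the same passages they took 0.494%, 0.469% and 0.499%. The lower DEGs took 0.149%, 0.13% and 0.14% of the reads with both agents and 0.337%, 0.346% and 0.318% with Ibr. Both sets were called on these libraries, so the direction and the lack of overlap of these shares are largely fixed by the call.

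The DEGs were called on these 6 libraries, so the accord of the passages among them is largely fixed by the call and is given as a description. The log2 difference had the same sign in all 3 passages for 508 of the 518 DEGs (98.1%), against 43.4% of all genes tested and 64.9% of those that averaged 1 CPM or more, and for 488 (94.2%) the libraries of the groups did not overlap in CPM (reads scaled to the TMM-adjusted library size). The share of genes without overlap was 28.2% over all genes tested and 43.1% over the 10792 genes that averaged 1 CPM or more. Passage p126 gave the largest difference of the 3 for 224 of the 388 higher and 77 of the 130 lower DEGs. The median log2 CPM difference of the higher DEGs was 1.22, 1.72 and 1.33 in passages p121, p126 and p128. The fit without passage p126, which leaves pairs within a series only, gave 324 DEGs (223 higher, 101 lower), of which 277 were among the 518, and none of the 518 had the opposite sign in it. A fit with the series as a term, added after the data were seen, gave 446.

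Most DEGs had low or moderate read counts. The share of DEGs was 9.05% among the 2728 genes with 1 to 10 CPM (187 higher, 60 lower), 1.8% among the 5929 with 10 to 100 CPM (70 higher, 37 lower) and 1.12% among the 2135 over 100 CPM (20 higher, 4 lower). Together, 378 (3.5%) of the genes from 1 CPM up were DEGs (277 or 2.57% higher, 101 or 0.936% lower), and a further 140 DEGs had a mean under 1 CPM. For 75 higher DEGs every Ibr library held 3 reads or fewer, and for 11 lower DEGs every Ibr + AS library did, so their FCs are known only as bounds. With those genes at their bound, the median log2 FC of the DEGs was 1.31 for the higher and -1.31 for the lower. A symbol could be given to 1068 of the genes, of which 30 (2.81%) were DEGs (18 or 1.69% higher, 12 or 1.12% lower), and 488 of the DEGs are known by identifier only.

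**Figure D1:**
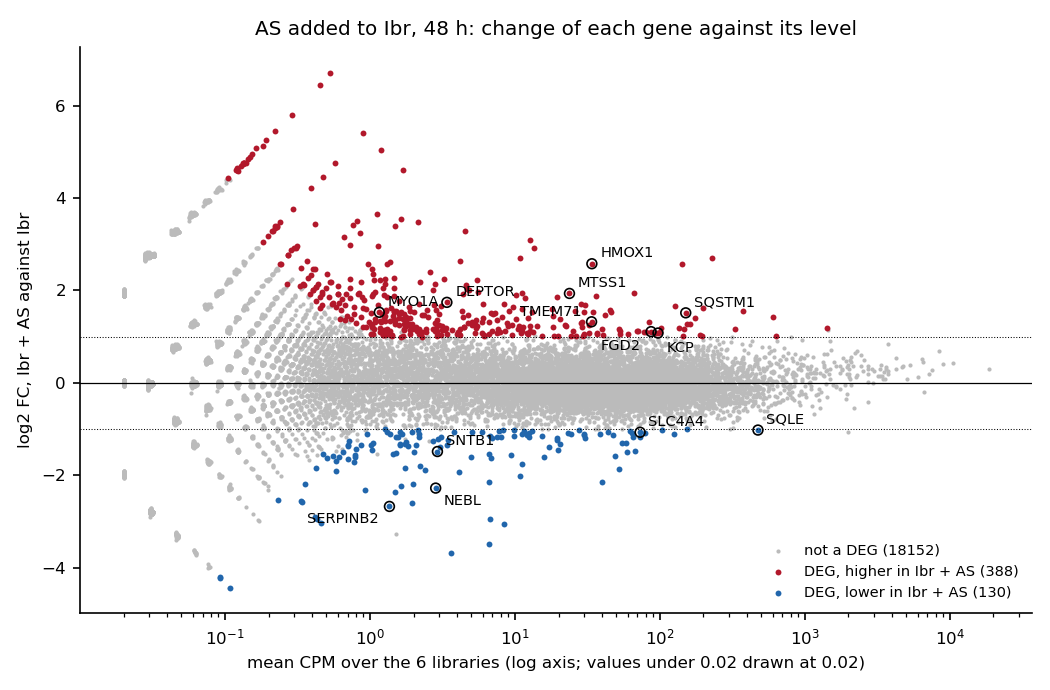
Log2 FC of Ibr + AS against Ibr at 48 h (vertical axis) against the mean CPM of the 6 libraries (horizontal, log axis), 1 point per gene tested. The 388 higher DEGs (red) outnumber the 130 lower (blue), and 187 of the former and 60 of the latter lie between 1 and 10 CPM, dotted lines mark a log2 FC of 1 and -1, and open circles mark 13 named genes.

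Among the genes with a symbol and a mean of at least 1 CPM, HMOX1, haem oxygenase 1, the inducible enzyme that breaks down haem, rose most. It stood at 74.1, 51.8 and 48.8 CPM in the Ibr + AS libraries of passages p121, p126 and p128 and at 9.31, 10.2 and 9.64 CPM in the Ibr libraries. Every library with both agents was above every Ibr library, with a log2 FC of 2.58 (SE 0.32, edgeR adjusted p = 2.64e-06). SQSTM1, the autophagy receptor p62, which binds ubiquitinated cargo, had 217, 231 and 222 CPM with both agents and 87.3, 70.4 and 77.8 CPM with Ibr. The groups were well apart, and the log2 FC was 1.51 (SE 0.10, edgeR adjusted p = 4.62e-23). MTSS1, which binds actin and membranes, had 36.8, 41 and 35.3 CPM with both agents and 11, 8.73 and 9.83 CPM with Ibr. Its log2 FC was 1.93 (SE 0.17, edgeR adjusted p = 2.48e-11), with no overlap.

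DEPTOR, which binds mTOR and inhibits both of its complexes, had 3.59, 5.13 and 6.98 CPM with both agents and 1.46, 1.19 and 2 CPM with Ibr. All 3 Ibr + AS libraries were above the Ibr libraries, with a spread that was wide for its level, and the log2 FC was 1.74 (SE 0.27, edgeR adjusted p = 1.5e-07). The other 11 genes that rose under the naming rule had log2 FCs between 1.04 and 1.53. They include FGD2, an exchange factor of the small GTPase CDC42 (1.11, from 55.3 ± 7.65 to 119 ± 6.73 CPM, SD, n = 3), and KCP, a secreted protein that modulates BMP signals (1.08, from 62.9 ± 12.4 to 131 ± 9.13 CPM). TMEM71, a transmembrane protein, rose by 1.32, and MRNIP, which binds the MRN complex of DNA repair, by 1.07. RASGEF1C, KIFC2 (a kinesin) and MAPK8IP2 (a scaffold of JNK signalling) rose by 1.27, 1.11 and 1.16, PRRT1 by 1.17, MYO1A (an unconventional myosin) by 1.53 and PMEL (a structural protein of melanosomes) by 1.40. GRTP1 (1.04) was the only one of the 15 whose groups overlapped, and it was no DEG when any 1 passage was left out. Without passage p126, MYO1A, PMEL, PRRT1, MAPK8IP2, KIFC2, FGD2 and KCP were no longer DEGs, and without passage p121 neither was MRNIP, all with the direction unchanged.

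The 9 genes with a symbol that fell under the naming rule were led by SERPINB2, an inhibitor of plasminogen activators. It had 0.359, 0.194 and 0.505 CPM with both agents and 2.01, 3.58 and 1.53 CPM with Ibr. The groups did not overlap, and the log2 FC was -2.68 (SE 0.39, edgeR adjusted p = 2.5e-08). NEBL, the actin-binding protein nebulette, had 0.717, 1.07 and 1.09 CPM with both agents and 6.03, 4.23 and 3.91 CPM with Ibr. Every Ibr library was above every library with both agents, and the log2 FC was -2.28 (SE 0.28, edgeR adjusted p = 1.76e-10).

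SQLE, squalene epoxidase of the sterol pathway, also fell. It had 332, 309 and 299 CPM with both agents and 556, 779 and 577 CPM with Ibr. The groups did not overlap, with passage p126 highest among the Ibr libraries, and the log2 FC was -1.02 (SE 0.10, edgeR adjusted p = 2.3e-14). SLC4A4, a sodium bicarbonate cotransporter, had 48.8, 39.7 and 52.8 CPM with both agents and 115, 72.4 and 110 CPM with Ibr, and passage p126 was the lowest of both groups. Its log2 FC was -1.07 (SE 0.25, edgeR adjusted p = 0.00338). SNTB1, a syntrophin adaptor of the dystrophin complex, fell by 1.49 on the log2 scale, RSPH3 (a radial spoke protein of cilia) by 1.32 and CNKSR3 (a scaffold protein) by 1.29. RGS22, a regulator of G-protein signalling, fell by 1.25 and AKAP12, an anchor of protein kinase A, by 1.17. Without passage p126, SQLE and AKAP12 were no longer DEGs, and without passage p121 SLC4A4 was not, and SQLE also lost the call with the series as a term, all with the direction unchanged.

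**Figure D2:**
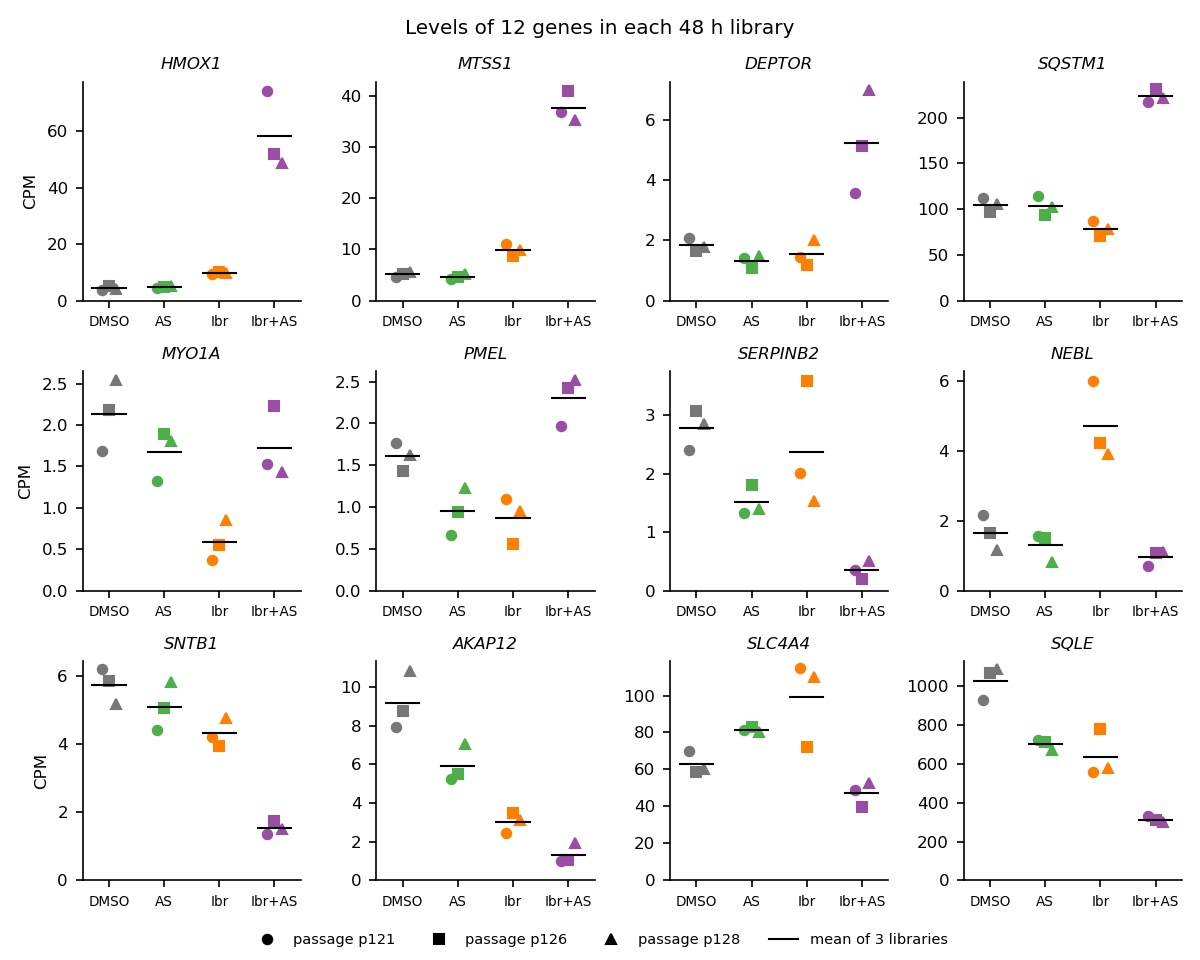
CPM of 12 named genes (vertical axes, linear from 0) in the 12 libraries of 48 h by treatment, with circles, squares and triangles for passages p121, p126 and p128 and a bar for the mean of 3. HMOX1, MTSS1, DEPTOR and SQSTM1 are highest in the Ibr + AS libraries, whereas MYO1A in Ibr + AS (mean 1.73 CPM) overlaps DMSO (mean 2.14 CPM). For NEBL, every Ibr + AS library (mean 0.959 CPM) lies below every DMSO library (mean 1.66 CPM).

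Some DEGs with a symbol were outside the naming rule and are named here after their values were seen. WNT7B, MIP and MEGF10 were higher and TPH2 and FAM184A lower, and each had a mean under 1 CPM. TPH2, a tryptophan hydroxylase, had 0.0897, 0.0968 and 0.0842 CPM with both agents, which is 1 read per library, and 0.365, 1.1 and 0.859 CPM with Ibr. Against a floor of 3 reads per library it was at least 2.87-fold lower. Among genes known by identifier only, ENSCAFG00000019278 had 2.69, 2.61 and 1.68 CPM with both agents and 0.183, 0 and 0 CPM with Ibr, at least 8.36-fold higher. ENSCAFG00000011034 had 3.86, 3.2 and 2.69 CPM with both agents and at most 0.286 CPM with Ibr, at least 11.7-fold higher. In the libraries with AS and no Ibr, ENSCAFG00000019278 had 1, 0 and 0 reads and ENSCAFG00000011034 had 4, 6 and 3 reads, against 43, 33 and 32 reads of the latter with both agents. In the DMSO libraries ENSCAFG00000011034 had 0, 1 and 0 reads. Its AS effect did not differ at the test between cells with and without Ibr (difference 1.27, SE 2.64, edgeR adjusted p = 0.946). ENSCAFG00000014490 fell most among the DEGs that averaged 1 CPM or more, from 5.3, 9.64 and 5.25 CPM with Ibr to 0.359, 0.484 and 0.673 CPM with both agents, a log2 FC of -3.70 (SE 0.50, edgeR adjusted p = 7.87e-06). ENSCAFG00000013904 fell by 3.50 on the log2 scale, from 10.8, 16.5 and 9.26 CPM to 1.26, 0.775 and 1.09 CPM.

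The DMSO libraries, from cells given the solvent alone, are the vehicle control of the study. The comparisons of Ibr with DMSO and of Ibr + AS with DMSO share libraries with the main one, so the values are given side by side for the named genes and no overlap is read from them. HMOX1 stood at 4.4 ± 0.641 CPM in DMSO (SD, n = 3), 9.72 ± 0.446 CPM with Ibr and 58.2 ± 13.8 CPM with both agents. SQSTM1 stood at 105 ± 7.62, 78.5 ± 8.49 and 223 ± 7.34 CPM in the same order. In SQSTM1 Ibr was below DMSO (log2 FC -0.41, edgeR adjusted p = 0.00165), and Ibr + AS was above it (1.10, edgeR adjusted p = 5.33e-17). MYO1A was 2.14 ± 0.429 CPM in DMSO, 0.592 ± 0.249 CPM with Ibr and 1.73 ± 0.435 CPM with both agents. It fell with Ibr (log2 FC -1.84, edgeR adjusted p = 6.29e-05), and Ibr + AS against DMSO gave -0.32 (edgeR adjusted p = 0.48). NEBL had the opposite course, 1.66 ± 0.507, 4.72 ± 1.14 and 0.959 ± 0.21 CPM, with a log2 FC of 1.51 for Ibr against DMSO (edgeR adjusted p = 1.27e-06) and -0.77 for Ibr + AS (edgeR adjusted p = 0.0655). AKAP12 was lowered by each step, with 9.2 ± 1.5, 3.04 ± 0.522 and 1.33 ± 0.527 CPM, and SQLE was 1029 ± 88, 638 ± 123 and 313 ± 16.6 CPM. By their means, HMOX1, AKAP12 and SQLE moved further from DMSO when AS was added, and MYO1A moved back toward it. SQSTM1 and NEBL ended on the other side of DMSO from Ibr, and for NEBL the difference from DMSO did not pass. These genes were chosen for their change from the same Ibr libraries, so a move back toward DMSO is partly set by that choice.

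Groups of genes were read at an adjusted p of at most 0.05 with no limit on size, since few of their members passed the limit of a DEG. At that level, 289 (33%) of the 876 genes with a symbol and at least 1 CPM passed, 133 (15.2%) higher and 156 (17.8%) lower, with a median log2 FC of -0.0624. The lists were made from the genes with a symbol, and these symbols come from result tables of the study on the same libraries, so the lists are not independent of the treatment. In the lists with 2 or fewer lower members, that count moved by at most 1 when a passage was left out.

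Genes of the cell cycle and DNA replication were lower with both agents. Of 30 such genes, 20 fell and 2 rose, with a median log2 FC of -0.425, and 0 of the 30 were DEGs. ATAD2, a chromatin ATPase of S phase, had 205, 176 and 200 CPM with both agents and 329, 369 and 314 CPM with Ibr, without overlap (log2 FC -0.80, SE 0.10, edgeR adjusted p = 2.67e-10). CDK2, the kinase of S-phase entry, had 35.7, 30.5 and 34.8 CPM with both agents and 48.3, 61.7 and 44.6 CPM with Ibr, also without overlap (-0.61). MCM5, a subunit of the replicative helicase, and CDK4, the partner of D cyclins, fell by 0.45 and 0.43. FBXO5, the inhibitor of the anaphase-promoting complex, fell by 0.89, but its groups overlapped because it differed between passages in both (61.1, 35.1 and 36.4 CPM against 104, 82.9 and 58.8 CPM). CCND3, cyclin D3, and NCAPH2, a condensin subunit, rose by 0.34 and 0.28. Without passage p126, 13 of the 30 fell and 1 rose, and without passage p128, 15 fell and 0 rose. Without Ibr, AS lowered 2 of the 30 (CDC25C and TONSL) and raised 0, and the AS effect was more negative with Ibr than without it for 12 and more positive for 0. AS without Ibr passed at that level for 3.66% of all genes and 5.14% of those with a symbol and 1 CPM, and the difference of the AS effects was negative for 13.8% and positive for 9.93% of the latter.

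Genes of antigen presentation were mostly higher. Of 8, 6 rose and 1 fell, with a median log2 FC of 0.391, and 5 rose without passage p126. DLA88, an MHC class I heavy chain, had 87.4, 112 and 98.9 CPM with both agents and 57.3, 67.9 and 55.2 CPM with Ibr, without overlap (0.73, SE 0.10, edgeR adjusted p = 2.31e-08). DLA-DOA, a chain of the modulator of peptide loading on MHC class II, rose by 0.66, and the peptide transporter TAP1 and its partner TAPBP by 0.43 and 0.40. DLA-DRA and DLA-DMA rose by 0.39 and 0.29, and CANX, the chaperone calnexin, fell by 0.43. MHC genes have near-identical copies, and the fate of reads that match more than 1 copy was not examined here, so their values are uncertain. With AS but no Ibr, none of the 8 had an edgeR adjusted p below 0.127.

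Most genes of B-cell receptor and lymphocyte signalling did not pass, and those that did were mostly higher. Of 18, 5 rose and 1 fell, and the median log2 FC was 0.0478. TNFRSF13C had 212, 293 and 251 CPM with both agents and 131, 157 and 149 CPM with Ibr, without overlap (0.79, SE 0.10, edgeR adjusted p = 8.18e-10). TAGAP, GPSM3, DEF6 and the small GTPase RAC2 rose by 0.67, 0.54, 0.46 and 0.41, and the receptor phosphatase PTPRJ fell by 0.58. In the PI3K, mTOR and FOXO axis, 3 of 14 genes rose (DEPTOR, the kinase PIM1 by 0.57 and the mTORC2 component PRR5 by 0.34) and 0 fell. PIK3R1, the regulatory subunit of PI3K, was 64 CPM with both agents and 61.5 CPM with Ibr, and INPP5D, the phosphatase SHIP1 that removes the PI3K product, was 775 and 798 CPM. Neither of these passed the test (edgeR adjusted p = 0.779 and 0.872).

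Among 16 transcription factors of B-cell growth and activation, 3 rose and 1 fell. IRF5 had 252, 267 and 264 CPM with both agents and 141, 126.5 and 145 CPM with Ibr (0.93, SE 0.09, edgeR adjusted p = 8.99e-15), and the groups were far apart. MYC, the growth regulator, had 345, 389 and 339 CPM with both agents and 223, 228 and 203 CPM with Ibr, again without overlap (0.71). IRF1 rose by 0.85 and MYB fell by 0.58. EGR1, an early gene of receptor signals, had a log2 FC of -1.0 with an SE of 0.56 and did not pass (edgeR adjusted p = 0.265). IRF1 and IRF5 also stand in the list of 16 interferon and cytokine genes, of which 4 rose and 0 fell, the others being APOL6 (0.45) and APOBEC3Z3 (0.37).

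In the lysosome and autophagy list, 5 of 16 genes rose and 1 fell. Those that rose include SQSTM1, the lysosomal hydrolases ARSA (0.78) and NEU1 (0.42) and the membrane protein CD63 (0.74), and the proton pump subunit ATP6V1C1 fell by 0.30. TFEB, a transcription factor of lysosomal genes, was 210 CPM with both agents and 182 CPM with Ibr and did not pass (edgeR adjusted p = 0.0857). Of 11 genes of oxidative stress, haem and iron, HMOX1 and SQSTM1 rose, and SOD2 and ACO1 fell by 0.38 and 0.37. TXNRD1, thioredoxin reductase, did not pass (0.17).

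Genes of ribosome biogenesis and of amino acid supply were lower where they passed. Of 14 genes of ribosome biogenesis 7 fell and 0 rose (median -0.314), led by SRFBP1, PWP1 and UTP20 with -0.56, -0.47 and -0.43, and 4 fell without passage p126 or without passage p128. Of 12 genes of amino acid supply and tRNA charging 6 fell and 0 rose (median -0.279), among them NARS1, the asparaginyl-tRNA synthetase (-0.60), and XPOT, the tRNA exporter (-0.49), but 2 fell without passage p126 or without passage p128. ATF4, the activator of amino acid genes, was 742 CPM with both agents and 819 CPM with Ibr and did not pass (edgeR adjusted p = 0.442). Ribosomal proteins and translation factors were mixed, with 3 of 15 higher (RPL8 by 0.51, EEF1D by 0.45, RPL10A by 0.29) and EIF4G2 lower by 0.31. In mitochondrial energy metabolism 4 of 15 fell (TFB1M, HSPA9, VDAC1 and SHMT2, by 0.63, 0.45, 0.33 and 0.26) and 1 rose (NDUFA6, 0.55), and without passage p126 a single one fell.

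Sterol and lipid genes went both ways, with 3 of 16 lower (SQLE, ACAT2 by 0.44 and LPGAT1 by 0.30) and 3 higher (AGPAT1, CPT1B and CERK, by 0.43, 0.42 and 0.33). The 23 genes of actin, adhesion and cytoskeleton were also split, with 5 higher (MTSS1, FGD2, CYTH4, MYH9 and MRTFA) and 4 lower (NEBL, AKAP12, PTK2 and ARHGAP39). Of 13 genes of apoptosis and the p53 response, GSDMD, the pore-forming protein gasdermin D, rose by 0.81 and 3 fell. These were BCL2, the anti-apoptotic protein (-0.71), DAPK1 (-0.62) and BCLAF1 (-0.54). BCL2 had 15.1, 14.9 and 13.3 CPM with both agents and 27.1, 19.4 and 24.6 CPM with Ibr, without overlap (SE 0.13, edgeR adjusted p = 4.1e-06). The main candidate genes of the study are not among the symbols paired here. Of 6 other genes it discusses, MYC rose, BCL2 and MYB fell, and DSE, NHSL1 and PIK3R1 did not pass.

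**Figure D3:**
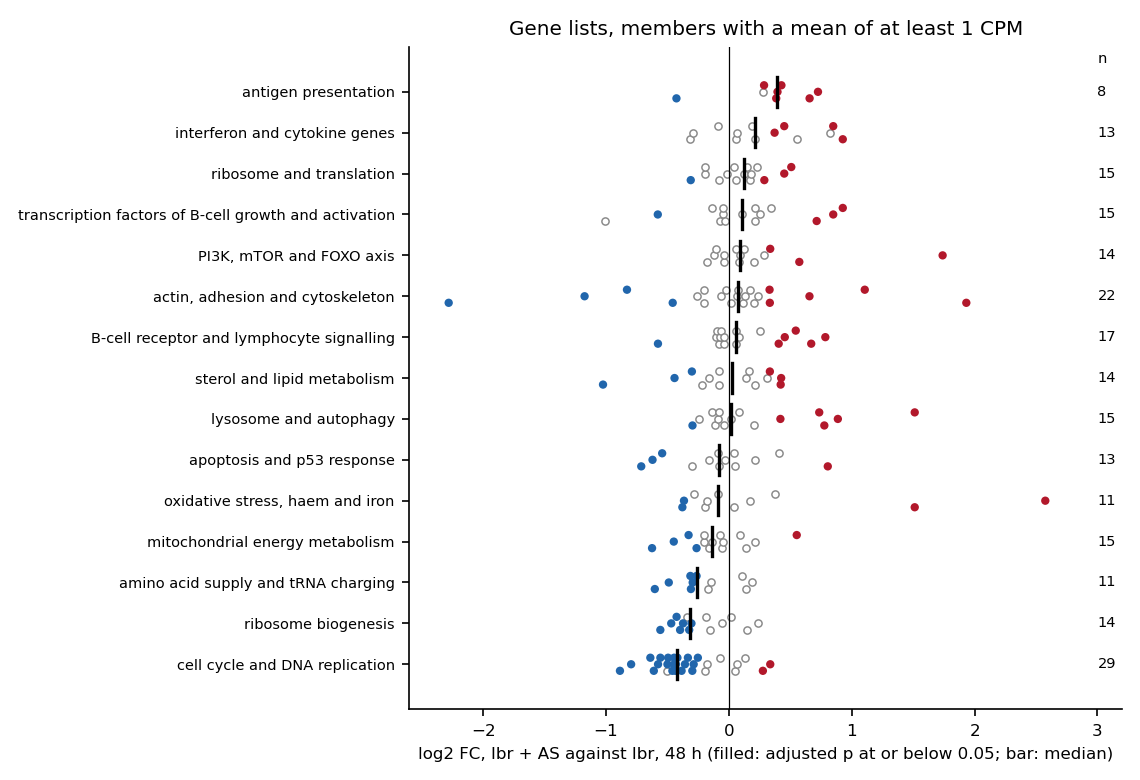
Log2 FC of Ibr + AS against Ibr at 48 h (horizontal axis) for the members of 15 gene lists with a mean of at least 1 CPM, sorted by the median (bar), with n at the right. Filled points passed an adjusted p of 0.05 (red higher, blue lower) and open points did not, and the cell cycle list lies furthest to the left and antigen presentation furthest to the right.

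AS gave fewer DEGs without Ibr. AS against DMSO at 48 h, which shares no library with the main comparison, gave 114 DEGs (0.611%), of which 19 (0.102%) were higher and 95 (0.509%) lower. Over the 10748 genes with at least 1 CPM in the 12 libraries, the AS effects with and without Ibr had a Pearson r of 0.135 and a Spearman rho of 0.0284, and 49.3% of the genes had the same sign. These points share a fit and the levels of the genes. Of the 241 higher DEGs of the main comparison at that level, 150 (62.2%) were above 0 with AS alone, against 52.8% of all genes, and the median log2 FC was 0.11 with AS alone and 1.24 with AS on Ibr. Of the 106 lower DEGs, 72 (67.9%) were below 0 with AS alone, against 47.2% of all genes, with a median of -0.227 against -1.25. Both sets were called on their change with Ibr present, so the gap between these medians is largely set by the call. Among all 388 higher DEGs, AS alone raised 7 and lowered 3 as DEGs, and among the 130 lower it lowered 16 and raised 0. The pair of passage p126 lies in different series here too, and without that passage the shares were 62.5% and 72%. With the series as a term they were nearer to the background, 56.2% of the higher DEGs against 53.3% of all genes and 64.7% of the lower against 46.7%, and r was 0.0925.

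The difference between the 2 AS effects was tested gene by gene in the same fit. It passed the limits of a DEG for 425 genes (2.28%), with 286 (1.53%) more positive and 139 (0.745%) more negative in the presence of Ibr. Of the 388 higher DEGs, 142 were among the positive and 0 among the negative, and of the 130 lower DEGs, 64 were among the negative and 0 among the positive. The main comparison is one of the terms of this difference, so these directions follow from the choice of genes. DEPTOR had 1.41, 1.1 and 1.48 CPM with AS alone and 2.09, 1.65 and 1.77 CPM in DMSO, and each AS library was below each DMSO library. Its AS effect was -0.47 without Ibr (edgeR adjusted p = 0.586) and 1.74 with it, a difference of 2.21 (SE 0.41, edgeR adjusted p = 3.41e-05). HMOX1 was 4.49, 4.88 and 5.34 CPM with AS alone, overlapping its DMSO libraries (3.86, 5.11 and 4.24 CPM), and the difference of the AS effects was 2.42 (SE 0.54, edgeR adjusted p = 0.00342). PMEL had a difference of 2.15, and NEBL, SERPINB2 and SLC4A4 of -1.93, -1.80 and -1.44. For other named genes the difference did not pass: RASGEF1C had an AS effect of 0.91 without Ibr and 1.27 with it, a difference of 0.35 (SE 0.36, edgeR adjusted p = 0.667), and SQLE of -0.55 and -1.02, a difference of -0.47 (SE 0.14, edgeR adjusted p = 0.0109, below the size limit).

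**Figure D4:**
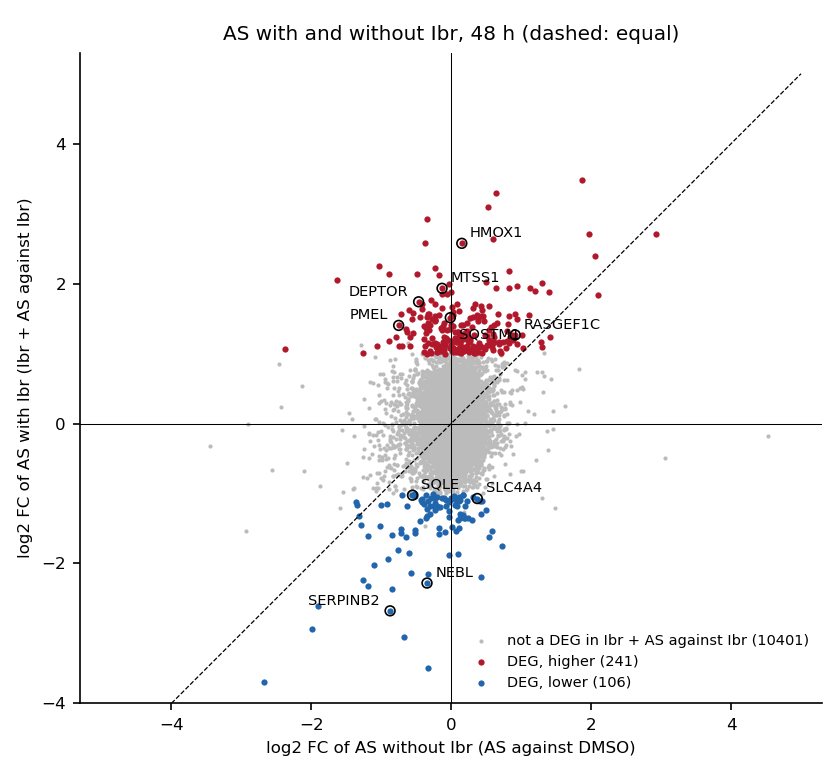
Log2 FC of AS with Ibr (Ibr + AS against Ibr, vertical axis) against log2 FC of AS without Ibr (AS against DMSO, horizontal axis) at 48 h, for genes with at least 1 CPM over the 12 libraries. The 241 higher (red) and 106 lower (blue) DEGs of the vertical comparison lie mostly near 0 on the horizontal axis and away from the dashed line of equal effects, and open circles mark 10 named genes. The DEGs were called on the vertical axis, so their distance from the dashed line is largely set by the call.

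The effect of AS on Ibr-treated cells was also found at 24 h. The comparisons of Ibr + AS with Ibr at 24 h and 72 h use other libraries and gave 537 DEGs (2.88%) and 323 DEGs (1.73%). At 24 h 416 (2.23%) were higher and the rest (0.648%) lower, close to the split at 48 h, and at 72 h 150 (0.803%) were higher and 173 (0.927%) lower. In the same direction, 277 genes were DEGs at 24 h and 48 h, 53.5% of those of 48 h and 51.6% of those of 24 h. At 72 h and 48 h they were 160, 30.9% of those of 48 h and 49.5% of those of 72 h, where the fit had 1 Ibr library less. A further DEG of both times, known by identifier only, was higher in Ibr + AS at 48 h (1.06) and lower at 72 h (-2.11), and its level was low, with a mean of 1.01 CPM over the 6 libraries. Of the 277 higher DEGs of 48 h with at least 1 CPM, 271 (97.8%) were above 0 at 24 h with a median log2 FC of 1.18, and 265 (95.7%) at 72 h with a median of 0.912. Of the 101 lower ones, 99 (98%) were below 0 at 24 h (median -0.99) and 101 (100%) at 72 h (median -1). Over all genes of that level, 48% were above 0 at 24 h and 50.2% at 72 h.

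The 103 genes that were DEGs in the same direction at all 3 times (72 higher, 31 lower) include DEPTOR, HMOX1, RASGEF1C, SQSTM1, TMEM71 and SERPINB2. HMOX1 had log2 FCs of 2.44, 2.58 and 2.29 at 24 h, 48 h and 72 h, and SERPINB2 of -2.53, -2.68 and -1.97. MTSS1 had 2.47, 1.93 and 0.85 and NEBL had -0.95, -2.28 and -2.45. A DEG at 48 h and at neither other time was found in 183 cases, such as GRTP1 (-0.00, 1.04 and -0.16) and PMEL (0.36, 1.40 and 0.64). That a gene passes at one time and not at another does not show a difference between times, which was tested directly. The difference between 48 h and 24 h passed for 1 gene (0.00536%), known by identifier only. It was higher in Ibr + AS at 48 h (1.18) and not at 24 h (-0.54). An unadjusted p under 0.05 in edgeR's test was found for 712 genes (3.81%), where 5% is the share with no difference. With genes of low counts filtered out (filterByExpr) the share was 5.17%, so the lower share does not show that the times agree. The difference between 72 h and 48 h passed for 22 genes (0.118%), all more negative at 72 h. A single one of them has a symbol and is named after its values were seen, P4HA2, a subunit of the collagen prolyl hydroxylase, with -0.49 at 48 h and -2.34 at 72 h. Among the lists, the cell cycle genes that passed were 17 lower and 2 higher of 30 at 24 h and 3 lower and 1 higher at 72 h, beside 30.9% and 10.8% of the genes with a symbol and 1 CPM that passed in either direction at these times.

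**Figure D5:**
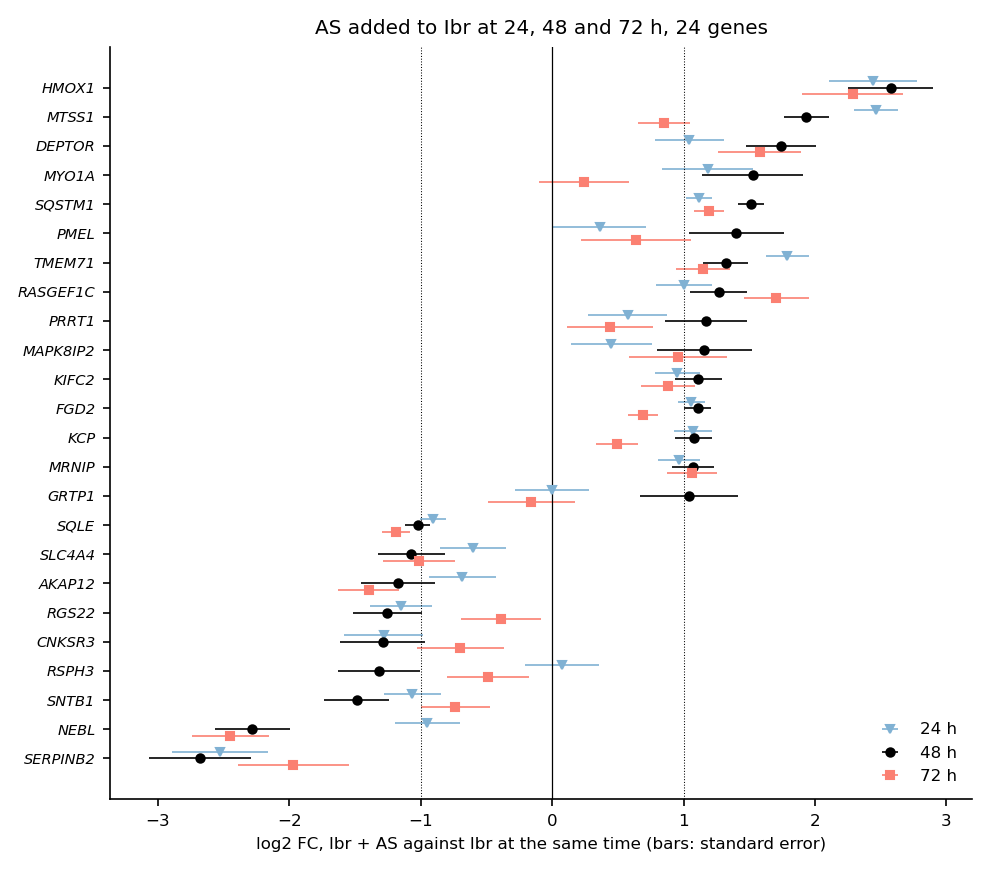
Log2 FC of Ibr + AS against Ibr (horizontal axis, with standard error bars) at 24 h (triangles), 48 h (circles) and 72 h (squares) for the 24 named DEGs of 48 h, with dotted lines at 1 and -1. HMOX1, SQSTM1, SERPINB2 and SQLE have the same sign at the 3 times, and MTSS1 is at 2.47 at 24 h and 0.85 at 72 h.

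Markers of other cell types were low or did not pass, with 1 exception. The 4 markers of T or NK cells (TCF7, IL2RB, IFNG, CD226) were each under 1 CPM, with a sum of 0.183 to 0.286 CPM in the Ibr libraries and 0.337 to 0.775 CPM in the Ibr + AS libraries, and 0 of 4 passed. Of 4 myeloid markers, LYZ, lysozyme, was 149 CPM with Ibr and 183 CPM with both agents (edgeR adjusted p = 0.0743), CSF2RB was 12.4 and 15.6 CPM, DCSTAMP was under 1 CPM and TREM2 had no read. Of 4 epithelial or pigment-cell markers, PMEL rose as given above, ESRP1 was 19.1 and 20 CPM, and GRHL2 and MLANA were near 0. Of the 5 B-cell markers, IRF5, TNFRSF13C and DLA-DRA rose and 0 fell.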

How the data were processed

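Poly(A) RNA of CLBL-1 was sequenced by the authors as single-end reads. Per the submitters' processing notes, STAR 2.7.5a, SAMtools and the CanFam3.1 build were used. The deposited table holds raw read counts of 30424 Ensembl genes as whole numbers, which the authors did not normalise, and which strand column was kept is not given in the sources used here, so genes on opposite strands that overlap cannot be told apart. Groups came from the treatment and time labels. No column of the table was left unassigned.

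The tests were run with edgeR 4.0.16 (R 4.3.3). Genes with at least 2 reads over 35 libraries (Ibr 72 h replicate 3 was left out, as in the study) were kept, TMM factors were used, and robust quasi-likelihood fits had group and passage as terms, with Benjamini-Hochberg adjustment over all genes. The labels of DMSO 24 h replicate 3 conflict, with p126 in its title and p128 as its passage. It is outside the main comparison and entered the shared fit as p128. A pair of libraries shares the cultures of a passage, and the deviations of Ibr + AS and Ibr libraries from their group means correlated within passages p121, p126 and p128 with r of 0.433, 0.288 and 0.0861 over 10792 genes. SE is the absolute log2 FC over the root of F. Log2 CPM per passage used a prior count of 1. A floor of 3 reads per library (0.271 CPM in Ibr + AS, 0.279 CPM in Ibr) set bounds on folds; these bounds and the depth cover counting error only. Symbols were paired with 1068 identifiers through tables of the study. The RefSeq table given held 0 of the identifiers.

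Named genes were the DEGs that have a symbol, moved one way in 3 passages and averaged 1 CPM or more (15 that rose, 9 that fell), the list members, the 2 identifiers without symbol that rose and fell most, and the 3 genes with the largest difference of AS effects in each direction. The members, lists and tests were chosen with earlier results of these data known. In simulated counts with 200 genes changed by a log2 FC of 2, edgeR found 197 (98.5%) in the main comparison with 2 other calls among 18642 genes, and DESeq2 1.42.0 found 195 (97.5%) with 0. Alternatives were DESeq2, RLE factors, filterByExpr, no passage term, each passage left out, all 36 libraries, glmTreat, fits on fewer libraries and a series term.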

Additional observations from a re-analysis of the deposited data

Results flagged for a closer look

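The effect of AS at 48 h differed between cells with and without Ibr for 425 genes, by the test of the difference in the same fit. Among the named genes the AS effect was more positive with Ibr, on the log2 scale, for HMOX1 (2.42), DEPTOR (2.21), PMEL (2.15), MTSS1 (2.06), MYO1A (1.87), SQSTM1 (1.53), TMEM71 (1.09) and KCP (1.08). It was more negative for RGS22 (-1.22), SNTB1 (-1.31), SLC4A4 (-1.44), SERPINB2 (-1.80), NEBL (-1.93) and ENSCAFG00000013904 (-3.17). These genes were named for their change with Ibr, which is a term of the difference.

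The effect of AS on Ibr-treated cells differed between 48 h and 24 h for 1 gene and between 72 h and 48 h for 22 genes, by the tests of these differences.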

How the results depend on the processing

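The 518 DEGs of Ibr + AS against Ibr became 324 without passage p126 (223 higher) and between 324 and 585 when 1 passage was left out (higher between 223 and 432, lower between 101 and 153). A test against the size limit itself (glmTreat) kept 45 (32 higher, 13 lower), since it asks that the FC exceed the limit beyond its error. The other settings gave 446 to 527, and 0 of the 518 had the opposite sign in any setting. Without the passage as a replicate block, 501 were DEGs, of which 489 were among the 518, and pairing changed the call of no named gene. The 425 genes whose AS effect differed with and without Ibr became 286 without passage p126 (192 more positive with Ibr, 94 more negative). They became 485 without passage p121, and the other settings in which this difference was tested gave 398 to 457. The difference between 48 h and 24 h passed for 1 gene in the main fit and for 0 genes with DESeq2 (576 or 3.09% with an unadjusted p under 0.05, where 5% is the share with no difference), RLE factors (714 or 3.82%), filterByExpr (614 or 5.17% of fewer genes) and no block (663 or 3.55%), and for 7 to 27 when 1 passage was left out. The difference between 72 h and 48 h passed for 22 genes, for 30 to 63 when 1 passage was left out (63 without passage p121 and 63 without passage p128) and for 40 with all 36 libraries. The causes were not tested, and with a passage left out there are fewer libraries. Of 336 results for named genes under the alternatives, 301 kept call and direction, 35 lost the call (19 of them under glmTreat) and 0 reversed. Of 384 counts for lists, 71 moved by over 1.5 times. At this depth, folds against libraries of 3 reads or fewer are bounds only.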
